A study of Arabidopsis thaliana with 10 samples.

Results

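Transcripts of 6 sugar transporters were followed in Arabidopsis thaliana leaves. The genes were chosen by name: SUC2 (AT1G22710, chromosome 1), SWEET11 (AT3G48740, chromosome 3), SWEET12 (AT5G23660, chromosome 5), STP1 (AT1G11260, chromosome 1), STP4 (AT3G19930, chromosome 3) and STP13 (AT5G26340, chromosome 5). Each was paired with 1 of the 33028 rows of the count files, STP13 under the name MSS1, and all 6 were among the 21475 genes with enough counts to be tested.

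Sucrose made in mesophyll cells leaves the leaf through the phloem. SWEET11 and SWEET12 are facilitators that let sucrose out of phloem parenchyma cells into the cell wall space, and SUC2 is the proton symporter that carries it from there into companion cells and sieve elements. STP1, STP4 and STP13 are proton symporters of the plasma membrane that bring glucose and other monosaccharides back into cells, and STP13 is known from responses to pathogens and to abiotic stress.

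Plants were raised at 22 °C under 16 h light and 8 h dark, and RNA came from the fifth and the sixth leaf at 4 weeks of age. By their labels, the 10 libraries form 5 groups of 2. These are leaves of a RanG22V overexpression line after 3 days in darkness (RanG22V D3), leaves of a RanT27N overexpression line after the same 3 days (RanT27N D3), leaves of each line on day 0 (RanG22V D0 and RanT27N D0), and day-0 leaves of wild type Col-0 (Col D0). Ran, a small GTPase, drives transport through nuclear pores. In the labels' wording the transgenic lines overexpress a Ran-GDP form (RanT27N) or a Ran-GTP form (RanG22V). The leaves were detached before their time in darkness, and wild type leaves after darkness are not analysed here. Neither the transgene promoter nor the number of independent lines could be taken from the labels. Whether the libraries of a group are separate plants is not stated either, so every p-value rests on a spread between libraries that may be technical.

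For 8 of the 10 libraries the group written in the header of the count file was not that of the label. Header and label were the same for Col D0. The pair labelled RanG22V D3 has the header RanT27N D3, the pair labelled RanT27N D3 has RanT27N D0, the pair labelled RanG22V D0 has RanG22V D3, and the pair labelled RanT27N D0 has RanG22V D0. Groups are named by their labels throughout. For any comparison of labelled groups, the reading by the headers follows from these pairs: RanG22V D3 against RanT27N D3 would be darkness against day 0 in the RanT27N line, and RanG22V D0 against RanT27N D0 the same in the RanG22V line. RanG22V D3 against RanG22V D0 would set the RanT27N line against the RanG22V line after darkness, and RanT27N D3 against RanT27N D0 the same lines on day 0. Against Col D0, the pairs labelled RanG22V D3, RanT27N D3, RanG22V D0 and RanT27N D0 would be RanT27N D3, RanT27N D0, RanG22V D3 and RanG22V D0. By the headers, the pairs labelled RanG22V D3 and RanG22V D0 are both dark-treated and the other 3 pairs are all day-0 leaves.

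Total counts were 14187505 to 24496672 per library, and ribosomal RNA took 8.19% to 24.54% of them. Levels are given as CPM, read counts scaled by TMM to a common library total, which are not corrected for gene length, so levels of different genes are not set against each other. RAN1 (AT5G20010) had 1086 and 1263 CPM in the libraries labelled RanG22V D3, 1518 and 1334 CPM in RanT27N D3, 850.9 and 913.1 CPM in RanG22V D0, 560.2 and 619.8 CPM in RanT27N D0, and 436.5 and 256.5 CPM in Col D0. RAN1 was thus higher in every library of a Ran line than in either Col library. Both pairs labelled D3 lay above both Ran pairs labelled D0. By the headers that split sets the RanT27N line above the RanG22V line. RAN2 was also higher in every Ran library than in Col D0, with 53.5 and 51.2 CPM there. RAN3 was not, with 46.4 and 50 CPM in RanT27N D0 against 52.1 and 53.9 CPM in Col D0. The sources used here do not say which Ran gene the transgenes carry. What the RAN1 split reflects, and which naming is right, was not tested.

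SUC2, the phloem-loading sucrose symporter, was low in both pairs labelled RanG22V and high in the other 3 pairs. It had 19.3 and 31.1 CPM in the libraries labelled RanG22V D3 and 27.9 and 30.2 CPM in those labelled RanG22V D0. The others had 231.0 and 365.5 CPM (RanT27N D3), 261.6 and 171.8 CPM (RanT27N D0) and 271.1 and 283.4 CPM (Col D0). The highest of the 4 low libraries lay far under the lowest of the 6 high ones, and no library stood between them.

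SUC2 was 11.8-fold lower in the pair labelled RanG22V D3 than in RanT27N D3 (log2 fold change -3.56 ± 0.41, SE, n = 2 each; adjusted p = 0.0026, edgeR quasi-likelihood test). In the pair labelled RanG22V D0 it was 7.46-fold lower than in RanT27N D0 (-2.90 ± 0.40, adjusted p = 0.00178). By the headers these are the darkness comparisons within the RanT27N line and within the RanG22V line. Against Col D0 it was 11-fold lower in RanG22V D3 (-3.46 ± 0.41, adjusted p = 0.0029) and 9.55-fold lower in RanG22V D0 (-3.25 ± 0.40, adjusted p = 0.00087). Each of these 4 calls passed the threshold of 0.05 in all 17 alternative settings.

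Between the groups that share a line by their labels, SUC2 passed no test. Its mean was 25.2 ± 8.29 CPM in RanG22V D3 and 29.0 ± 1.64 CPM in RanG22V D0 (SD, n = 2 each), a log2 difference of -0.20 ± 0.37 (SE, adjusted p = 0.806). In the line labelled RanT27N it was 298.3 ± 95.1 CPM at D3 and 216.7 ± 63.5 CPM at D0 (0.46 ± 0.37, adjusted p = 0.763). In the order of mean levels, RanT27N D3, Col D0 and RanT27N D0 differed from their neighbours by less than the SD of 1 of the groups, and so did RanG22V D0 and RanG22V D3.

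**Figure D1:**
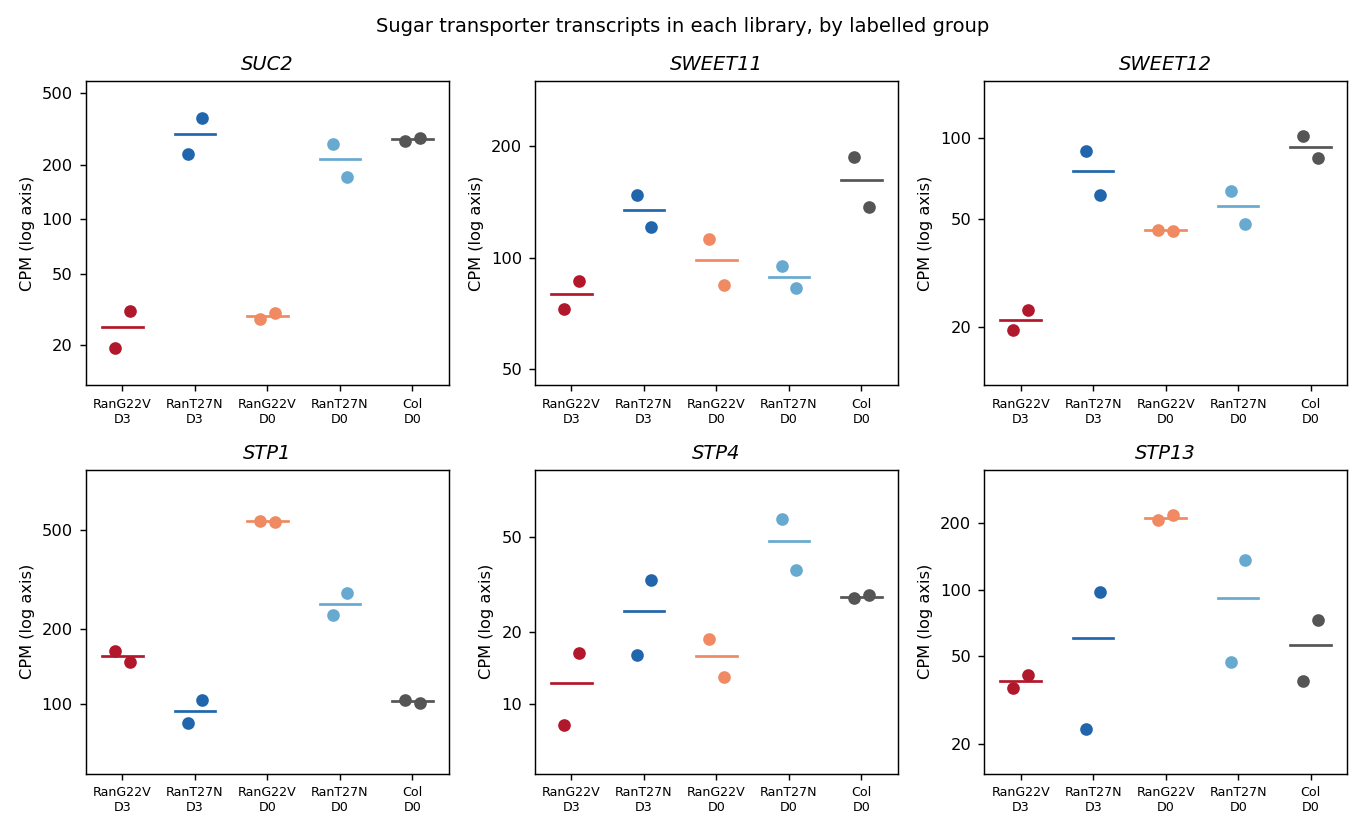
Level of each of the 6 sugar transporters in each of the 10 libraries, as CPM on a log axis, by labelled group; points are libraries and lines are group means (n = 2). SUC2 splits into 4 low and 6 high libraries, STP1 is highest in the pair labelled RanG22V D0, and the libraries of STP13 lie apart in RanT27N D3 and RanT27N D0.

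SWEET12 was lowest in the pair labelled RanG22V D3 and intermediate in the pair labelled RanG22V D0. It had 19.5 and 23.0 CPM in RanG22V D3, 89.5 and 61.6 CPM in RanT27N D3, 45.7 and 45.2 CPM in RanG22V D0, 63.5 and 48.0 CPM in RanT27N D0, and 101.1 and 83.8 CPM in Col D0. The pair labelled RanG22V D3 lay under all other libraries. RanG22V D0 lay under the remaining 6, though only slightly under the lower RanT27N D0 library.

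The fall of SWEET12 was 3.55-fold in RanG22V D3 against RanT27N D3 (log2 fold change -1.83 ± 0.31, SE, adjusted p = 0.00814, edgeR). It was 4.35-fold against Col D0 (-2.12 ± 0.31, adjusted p = 0.00511). RanG22V D0 was 2.03-fold lower than Col D0 (-1.02 ± 0.30, adjusted p = 0.0355). Within the label RanG22V, D3 against D0 gave -1.10 ± 0.30 and missed the threshold (adjusted p = 0.0762, but 0.0138 by DESeq2 and 0.0181 with only the compared libraries in the fit), and RanG22V D0 against RanT27N D0 gave -0.29 ± 0.30 (adjusted p = 0.543). The call against RanT27N D3 was lost without replicate 1 of RanT27N D3 (adjusted p = 0.0505), replicate 1 of RanG22V D3 (0.0777) or replicate 2 of RanG22V D3 (0.0606). The call of RanG22V D3 against Col D0 was lost without replicate 1 of RanG22V D3 (0.0511), and that of RanG22V D0 against Col D0 without replicate 1 of Col D0 (0.114), either library of RanG22V D0 (0.164 and 0.171) or either library of RanG22V D3 (0.0599 and 0.0594), and with only the compared libraries in the fit (0.0683).

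SWEET11, the other sucrose facilitator of this pair, varied less. It had 72.5 and 86.6 CPM in RanG22V D3, 148.0 and 121.3 CPM in RanT27N D3, 112.1 and 84.6 CPM in RanG22V D0, 95.1 and 82.8 CPM in RanT27N D0, and 187.4 and 137.0 CPM in Col D0. No comparison called it. The nearest to the threshold was RanG22V D3 against Col D0, with a log2 fold change of -1.03 ± 0.31 (SE, n = 2 each; adjusted p = 0.0627, edgeR). That test passed by DESeq2 (adjusted p = 0.0101) and without replicate 2 of Col D0 (0.0498). RanG22V D3 against RanT27N D3 gave -0.76 ± 0.31 (adjusted p = 0.144), so the direction was that of SWEET12 at a smaller size, but whether the genes differ was not tested.

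STP1, a monosaccharide symporter also known from guard cells, was highest in the pair labelled RanG22V D0. It had 544.2 and 536.4 CPM there, against 227.0 and 278.6 CPM in RanT27N D0 and 103.8 and 101.3 CPM in Col D0. The D3 pairs had 162.7 and 147.8 CPM (RanG22V D3) and 84.1 and 103.6 CPM (RanT27N D3). In the order of means, RanG22V D0, RanT27N D0, RanG22V D3 and Col D0 each stood apart from the next by more than the SD of either group, and Col D0 and RanT27N D3 did not.

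STP1 was 5.27-fold higher in RanG22V D0 than in Col D0 (log2 fold change 2.40 ± 0.31, SE, n = 2 each; adjusted p = 0.00102, edgeR), which held in all 17 alternative settings. Against RanT27N D0 it was 2.14-fold higher (1.10 ± 0.30, adjusted p = 0.0314). RanG22V D3 was 3.48-fold lower than RanG22V D0 (-1.80 ± 0.30, adjusted p = 0.0167), a comparison that by the headers sets the RanT27N line against the RanG22V line after darkness. RanT27N D3 against RanT27N D0 gave -1.43 ± 0.30 (adjusted p = 0.105), by the headers the same lines on day 0. RanT27N D0 against Col D0 gave 1.3 ± 0.30 (adjusted p = 0.173). The last 2 tests passed by DESeq2 (adjusted p = 6e-06 and 6.45e-05).

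The STP1 call of RanG22V D3 against RanG22V D0 was lost without any 1 of those 4 libraries (adjusted p = 0.0839 to 0.141). The call of RanG22V D0 against RanT27N D0 was lost without any 1 of its 4 libraries (0.076 to 0.196), without replicate 1 of RanT27N D3 (0.0505), and without either library of RanG22V D3 (0.0621 and 0.0612). It was also lost with no filter on low counts (0.072) and with only the compared libraries in the fit (0.055).

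The 3′ end of STP1 overlaps a gene on the opposite strand, AT1G11270, by 438 bases in the RefSeq models of TAIR10.1. In the last 500 bases of the STP1 transcript, 61.0% of all 50-base windows also occur in another transcript on either strand, against 0 for the other 5 transporters. Kits of this name commonly read transcript 3′ ends, and the sources used here do not say whether the counting used strand, so reads of the 2 genes may not have been told apart and the STP1 values are uncertain. AT1G11270 itself had 4.36 to 5.33 CPM in RanG22V D3, 17.7 to 26.1 CPM in RanT27N D3, 7.42 to 8.67 CPM in RanG22V D0, 9.31 to 13.3 CPM in RanT27N D0 and 15.3 to 17.8 CPM in Col D0. These levels cannot show how reads of the shared 438 bases were assigned.

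STP13 was highest in the pair labelled RanG22V D0, with 206.1 and 218.2 CPM. The other pairs had 36.0 and 41.4 CPM (RanG22V D3), 23.6 and 97.4 CPM (RanT27N D3), 47.4 and 136.5 CPM (RanT27N D0) and 38.9 and 73.3 CPM (Col D0). Both RanG22V D0 libraries lay above all 8 others, but replicate 2 was 4.12 times replicate 1 in RanT27N D3, 2.88 times in RanT27N D0 and 1.88 times in Col D0. Replicate 2 was the higher one in all 5 groups. No comparison called STP13. RanG22V D0 against Col D0 gave a log2 fold change of 1.92 ± 0.68 (SE, n = 2 each; adjusted p = 0.069, edgeR), and RanG22V D3 against RanG22V D0 gave -2.46 ± 0.69 (adjusted p = 0.082).

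Both STP13 tests lay close to the threshold and crossed it in several settings. RanG22V D0 against Col D0 passed in 8 of 17 alternatives and RanG22V D3 against RanG22V D0 in 6 of 17. In both, 4 of these kept all libraries in the comparison: DESeq2 (adjusted p = 0.0162 and 0.00421), no filter on low counts (0.00466 and 0.00176), only the compared libraries in the fit (0.0359 and 0.000781), and the replicate number as a block. Leaving out a library of RanT27N D3 gave 0.0313 and 0.031 for the test against Col D0, and 0.047 and 0.0468 for the test against RanG22V D0. Leaving out a library of RanT27N D0 gave 0.0468 and 0.0459 for the test against Col D0.

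STP4 was highest in the pair labelled RanT27N D0. It had 8.18 and 16.4 CPM in RanG22V D3, 16.1 and 33.0 CPM in RanT27N D3, 18.7 and 13.0 CPM in RanG22V D0, 59.7 and 36.3 CPM in RanT27N D0, and 27.7 and 28.5 CPM in Col D0. RanT27N D0 lay above all other pairs, and the remaining pairs overlapped their neighbours in the order of means. RanG22V D0 was 3.04-fold lower than RanT27N D0 (log2 fold change -1.60 ± 0.46, SE, n = 2 each; adjusted p = 0.0405, edgeR). That call was lost without replicate 1 of RanT27N D0 (adjusted p = 0.191) or without either library of RanG22V D0 (0.113 and 0.222). RanT27N D0 against Col D0 gave 0.77 ± 0.45 (adjusted p = 0.672).

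**Figure D2:**
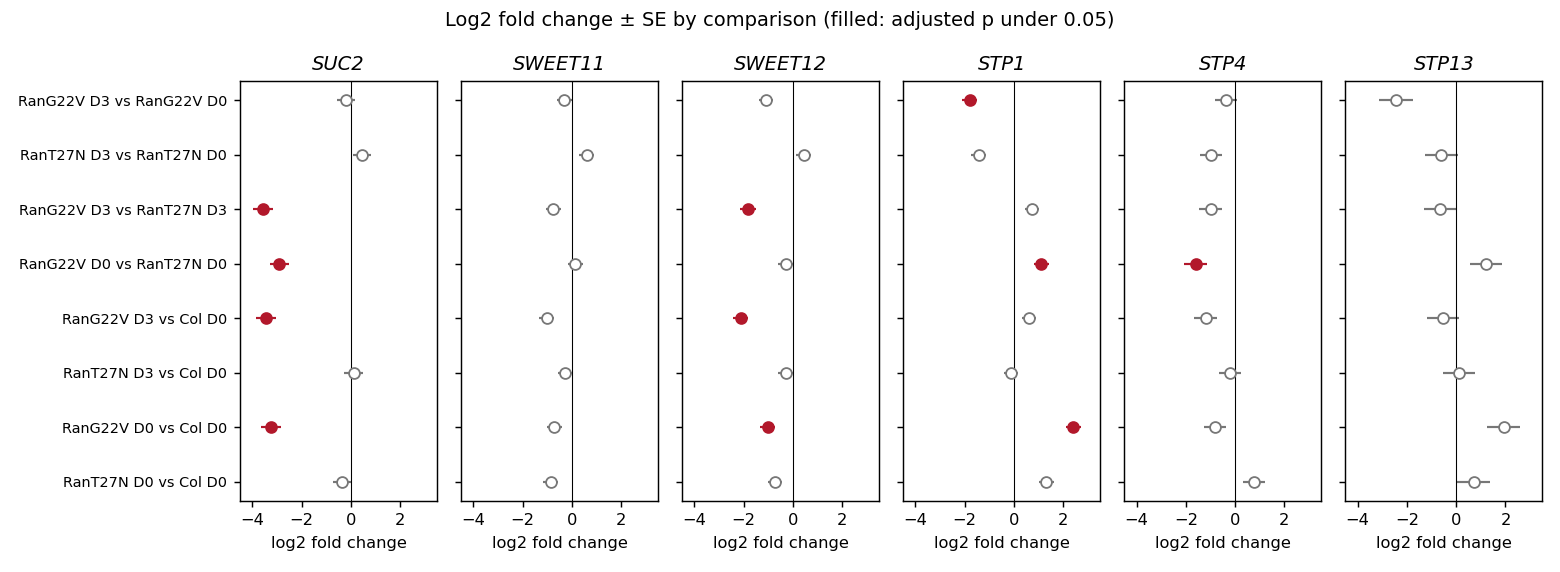
Log2 fold change with its SE (horizontal axis) of each transporter in 8 comparisons of labelled groups (rows; first group over second), with filled red points at an adjusted p under 0.05. SUC2 was called in the 4 comparisons of a pair labelled RanG22V with one of another label, and SWEET11 and STP13 in none.

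Counted by comparison, the members called are given beside the share of all tested genes called. The members were chosen with earlier results of these data known, so these counts carry no test. Between RanG22V D3 and RanT27N D3, 2 of 6 members were called, SUC2 and SWEET12, both lower, where 10.8% of all genes were called and 6.92% were called lower. Between RanG22V D0 and RanT27N D0, 3 of 6 were called (17.6% of all genes), SUC2 and STP4 lower (9.36% of all genes were lower) and STP1 higher (8.25% were higher). Between RanG22V D0 and Col D0, 3 of 6 were called (23.2%), SUC2 and SWEET12 lower (12.1%) and STP1 higher (11.1%). Between RanG22V D3 and Col D0, 2 of 6 were called (11.2%), SUC2 and SWEET12, both lower (7.05%). These comparisons share libraries with one another, and those against Col D0 share its 2 libraries.

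Fewer members, and fewer genes in all, were called in the other comparisons between groups. Between RanG22V D3 and RanG22V D0, STP1 was the 1 member called, where 3.94% of all genes were called and 2.77% were called lower. Between RanT27N D3 and RanT27N D0, edgeR called 0 members and 0.345% of all genes. There STP1 was the 1 member at an unadjusted p under 0.05 (9.45% of all genes) and the 1 called by DESeq2 (2.73%). Between RanT27N D0 and Col D0, edgeR called 0 members and 0.247% of all genes, with 3 members, STP1, SWEET11 and SWEET12, at an unadjusted p under 0.05 (8.68%) and STP1 called by DESeq2 (1.91%). Between RanT27N D3 and Col D0, edgeR called 0 members and 0% of all genes, with 0 members at an unadjusted p under 0.05 (4.04%) and 0 called by DESeq2 (0.224%).

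Whether the effect of labelled darkness differed between the labelled lines was tested as an interaction, RanG22V D3 minus RanG22V D0, less the same of RanT27N. By the headers this is the darkness effect in the RanT27N line less that in the RanG22V line. By edgeR it called 0 of 6 members and 0.21% of all genes, with 1 member at an unadjusted p under 0.05 (12.6% of all genes) and 1 called by DESeq2 (3.71%). That member was SWEET12, with a log2 difference of -1.53 ± 0.42 (SE, adjusted p = 0.192 by edgeR and 0.0299 by DESeq2). SUC2 had -0.66 ± 0.53 (adjusted p = 0.668) and STP1 had -0.37 ± 0.41 (adjusted p = 0.789).

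The other sucrose carriers of the SUC family did not share one pattern. Of 8 relatives paired with rows, 4 passed the filter on low counts. Against RanT27N D3, 2 of these 4 were lower in RanG22V D3, where 6.92% of all genes were called lower. They were SUC3, a sucrose symporter, and SUC4, the sucrose exporter of the vacuole. SUC3 had 3.83 to 3.95 CPM in RanG22V D3 and 20.5 to 21.5 CPM in RanT27N D3 (log2 fold change -2.43 ± 0.41, SE, adjusted p = 0.00827, edgeR). This was lost without either RanG22V D3 library (adjusted p = 0.0656 and 0.0675), and SUC4, with -2.36 ± 0.64 (adjusted p = 0.0462), was lost in 8 of 17 alternatives. SUC7 had 7.18 to 16.2 CPM in RanG22V D0 and 0 counts in Col D0, which is at least 73.6-fold higher when each Col library is given a floor of 3 counts. SUC7 has close copies in the genome, and reads of those may be counted with it.

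In the SWEET family, 15 relatives of SWEET11 and SWEET12 were paired with rows and 9 were tested. SWEET15, a sucrose exporter also known as SAG29 and long used as a marker of leaf senescence, had 785.7 to 973.0 CPM in RanG22V D0. It had 1.09 to 3.37 CPM in RanG22V D3, 0.541 to 1.18 CPM in RanT27N D3, 0 to 2.09 CPM in RanT27N D0 and 0.0559 to 0.848 CPM in Col D0. SWEET2, a sugar carrier of the vacuole membrane, had 171.0 to 310.5 CPM in RanG22V D0, against 3.79 to 4.30 CPM in RanT27N D0 and 0.783 to 1.95 CPM in Col D0. Neither gene overlapped between RanG22V D0 and any other group.

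SWEET15 and SWEET2 were the 2 of 9 relatives called higher in RanG22V D0 than in Col D0, where 11.1% of all genes were called higher. Log2 fold changes were 10.87 ± 1.72 for SWEET15 (SE, adjusted p = 0.00234, edgeR) and 7.45 ± 0.75 for SWEET2 (adjusted p = 0.000368), and both passed in all 17 alternatives. Another 4 of the 9 were lower (12.1% of all genes were called lower), among them the glucose carrier SWEET1, with 2.68 to 4.88 CPM in RanG22V D0 and 19.7 to 32.3 CPM in Col D0 (-2.78 ± 0.46, adjusted p = 0.00305). Without replicate 2 of RanG22V D0 the count lower was 1. Between RanG22V D3 and RanT27N D3, SWEET13, another sucrose exporter, was the only 1 of the 9 called, a share near the 10.8% of all genes called. It had 2.57 to 4.28 CPM in RanG22V D3 and 16.1 to 63.1 CPM in RanT27N D3 (-3.52 ± 0.94, adjusted p = 0.0429). This was lost without replicate 2 of RanT27N D3 (0.209) or either library of RanG22V D3 (0.226 and 0.162).

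Of the 11 other STP genes, 6 were tested, and STP7 was the 1 called higher in RanG22V D0 than in Col D0. In that comparison 11.1% of all genes were called higher, and 1 call is too few to set against this share. STP7 had 29.1 to 30.5 CPM in RanG22V D0 and 7.88 to 10.4 CPM in Col D0 (log2 fold change 1.70 ± 0.33, SE, adjusted p = 0.00589, edgeR), and passed in all 17 alternatives. It was also higher in RanG22V D3, with 19.2 to 28.4 CPM, than in RanT27N D3, with 5.94 to 7.82 CPM (1.79 ± 0.33, adjusted p = 0.0115). That call was lost without replicate 2 of RanT27N D3 (0.0695) or replicate 1 of RanG22V D3 (0.0841).

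**Figure D3:**
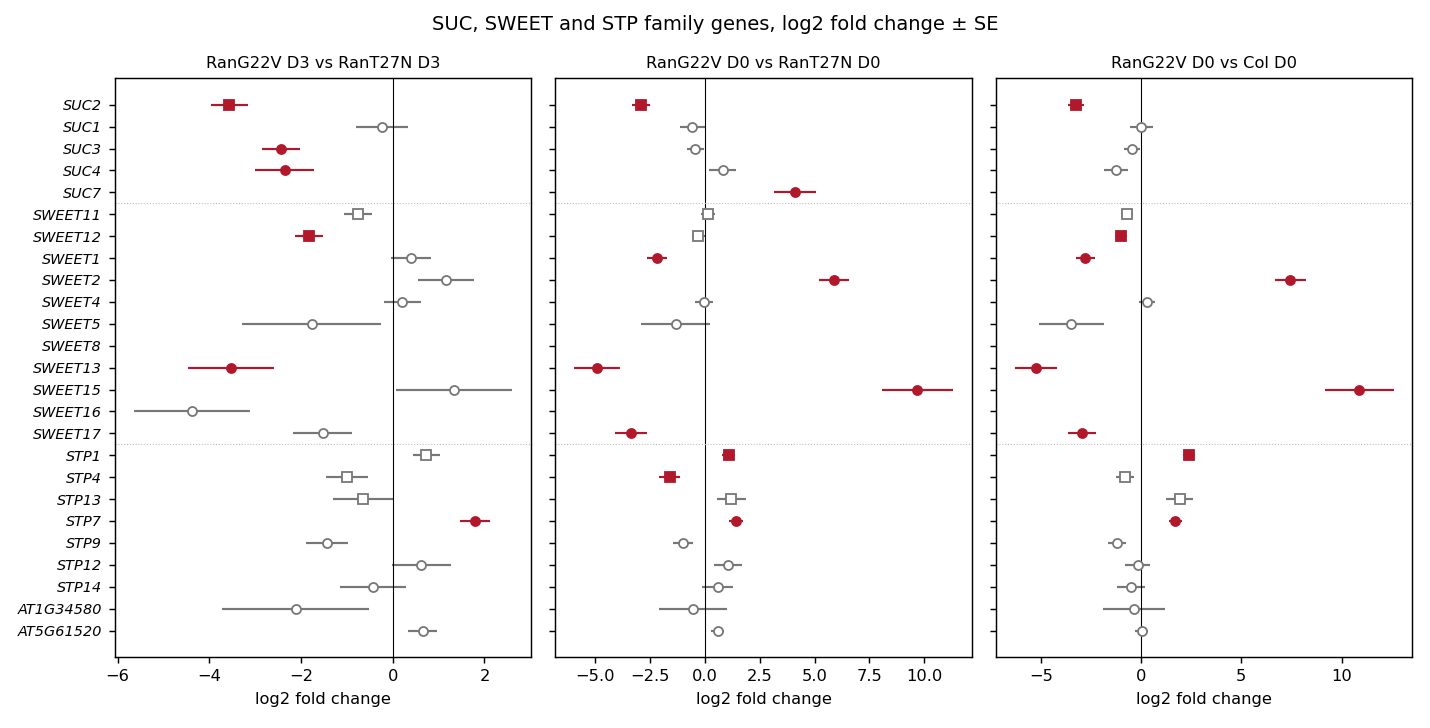
Log2 fold change with its SE (horizontal axis) of the 6 transporters (squares) and their tested SUC, SWEET and STP relatives (circles) in 3 comparisons of labelled groups, filled red at an adjusted p under 0.05; genes with 0 counts in a whole group of a comparison have no point there. SWEET15 and SWEET2 lie far to the right in the 2 comparisons of RanG22V D0, at 10.87 and 7.45 against Col D0, and SUC2 lies left of 0 in all 3.

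Among sugar carriers listed together, mainly of the vacuole and the plastid, calls were made in both directions. Of 19 tested, 4 were higher and 5 lower in RanG22V D0 than in Col D0, against 11.1% and 12.1% of all genes. The list median was -0.51 where the median of all genes was -0.00 (log2). SFP1, a sugar carrier, had 162.6 to 237.8 CPM in RanG22V D0 and 6.09 to 8.00 CPM in Col D0 (4.83 ± 0.48, SE, adjusted p = 0.000337, edgeR). ESL1, a monosaccharide facilitator of the vacuole, had 179.3 to 317.9 CPM against 21.9 to 27.7 CPM (3.33 ± 0.57, adjusted p = 0.0034). MEX1, the maltose exporter of the plastid, had 4.50 to 4.93 CPM against 18.1 to 23.6 CPM (-2.14 ± 0.34, adjusted p = 0.00247). These 3 calls passed in all 17 alternatives. Without either library of RanG22V D0 the count lower was 2, with only the compared libraries in the fit it was 3, and without its replicate 1 the count higher was 2. Against RanT27N D3, 0 were higher and 3 lower in RanG22V D3, where 6.92% of all genes were called lower. These 3 calls were lost without replicate 2 of either pair, while 6 were lower by DESeq2.

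Among 18 tested genes of sucrose synthesis and cleavage, the sucrose synthase SUS3 stood high in both pairs labelled RanG22V. It had 114.8 to 143.3 CPM in RanG22V D3 against 5.23 to 9.87 CPM in RanT27N D3 (log2 fold change 4.09 ± 0.41, SE, adjusted p = 0.00187, edgeR). In RanG22V D0 it had 190.0 to 250.3 CPM, against 4.90 to 5.96 CPM in RanT27N D0 (5.34 ± 0.43, adjusted p = 0.000315) and 5.39 to 7.55 CPM in Col D0. Its 4 libraries under the label RanG22V were the 4 in which SUC2 was low. AT1G62660, a glycosyl hydrolase in the reference annotation, was high in RanG22V D0 with 176.2 to 193.4 CPM, against 6.55 to 25.7 CPM in Col D0 (3.52 ± 0.59, adjusted p = 0.00306). In all, 4 of the 18 were higher (11.1% of all genes) and 1 was lower (12.1% of all genes) in RanG22V D0 than in Col D0. Without either RanG22V D0 library the count higher was 2, and the 1 lower was lost without replicate 1 of either pair.

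Genes of starch breakdown were mostly lower in the pairs labelled RanG22V. Of 14 tested, 12 were lower and 1 higher in RanG22V D0 than in Col D0 (12.1% and 11.1% of all genes), with a list median of -4.04 on the log2 scale where the median of all genes was -0.00. Against RanT27N D3, 9 were lower and 1 higher in RanG22V D3, where 10.8% of all genes were called and 6.92% were called lower. The list median there was -2.82 against 0.01 over all genes. SEX4, a phosphatase that acts on starch, had 2.37 to 3.78 CPM in RanG22V D0 and 95.7 to 111.0 CPM in Col D0 (-5.07 ± 0.37, SE, adjusted p = 0.000192, edgeR). PHS2, the cytosolic glucan phosphorylase, had 1.53 to 3.79 CPM against 128.1 to 314.1 CPM (-6.37 ± 0.78, adjusted p = 0.00083). The exception was BAM9, a beta-amylase relative without catalytic activity, with 65.6 to 124.7 CPM in RanG22V D0 and 5.71 to 7.13 CPM in Col D0 (3.89 ± 0.41, adjusted p = 0.000442). These 3 calls passed in all 17 alternatives, while the 12 lower became 8 without replicate 2 of RanG22V D0, and the 9 lower became 2 without either RanG22V D3 library. The 1 higher in RanG22V D3 was lost without either RanG22V D3 library or replicate 2 of RanT27N D3.

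Markers of leaf cell types also differed between the labelled groups. In bulk leaf samples fewer cells of a type and less RNA per cell cannot be told apart. The 12 phloem markers summed to 218.5 to 288.9 CPM in RanG22V D3, 420.1 to 490.4 CPM in RanT27N D3, 170.6 to 207.4 CPM in RanG22V D0, 321.5 to 340.5 CPM in RanT27N D0 and 391.0 to 406.2 CPM in Col D0. The 4 libraries with low SUC2 were thus also the 4 with the lowest phloem sums, although the sums spread over a smaller range than SUC2. That order rested on the marker PP2-A1, with 40.9 to 51.7 CPM in the pairs labelled RanG22V and 146.5 to 208.3 CPM in the others. Without PP2-A1, replicate 1 of RanG22V D3 would lie above both RanT27N D0 libraries, and its replicate 2 above replicate 2 of RanT27N D0. Between the pairs labelled RanG22V, SWEET12 was lower and the phloem sum higher in RanG22V D3. SWEET12 missed the threshold there, and 0 of the 11 markers tested were called. Of 11 markers tested, 4 were lower and 1 higher in RanG22V D3 than in RanT27N D3. In that comparison 10.8% of all genes were called and 6.92% were called lower. In RanG22V D0, 6 were lower than in Col D0, where 12.1% of all genes were called lower. Without replicate 2 of RanG22V D3 the 4 became 0. The 1 higher, AKT2, was lost without any 1 library of RanG22V D3, RanT27N D3 or RanG22V D0. Without either RanG22V D0 library the 6 became 3, and with only the compared libraries in the fit they became 2.

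The phloem markers did not change as one. PP2-A1, a phloem lectin, had 43.6 to 47.7 CPM in RanG22V D0 and 158.7 to 172.9 CPM in Col D0 (log2 fold change -1.86 ± 0.28, SE, adjusted p = 0.00199, edgeR). SULTR2;1, a sulfate carrier of vascular cells, had 12.1 to 16.5 CPM against 64.2 to 83.7 CPM (-2.37 ± 0.41, adjusted p = 0.00348). AHA3, the proton pump of companion cells, had 49.5 to 51.9 CPM in RanG22V D3, 53.3 to 63.6 CPM in RanT27N D3, 22.9 to 28.4 CPM in RanG22V D0, 48.2 to 51.8 CPM in RanT27N D0 and 51.8 to 61.0 CPM in Col D0. AKT2, a potassium channel of the phloem, ran the other way, with 52.8 to 88.4 CPM in RanG22V D3 and 17.5 to 24.9 CPM in RanT27N D3. It had 44.9 to 57.5 CPM in RanG22V D0, 19.7 to 21.4 CPM in RanT27N D0 and 12.9 to 34.2 CPM in Col D0. The differences of RanG22V D0 from RanT27N D0 and Col D0 were not called. NAC086 was at or near 0 in all libraries. The part of these markers in the SUC2 and SWEET12 results was not tested.

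The list median of the 5 mesophyll markers was -4.46 (log2) in RanG22V D0 against Col D0, where that of the phloem markers was -1.33. Their sum was 4553 to 5263 CPM in RanG22V D3, 9624 to 10735 CPM in RanT27N D3, 343.5 to 883.4 CPM in RanG22V D0, 9001 to 9424 CPM in RanT27N D0 and 5500 to 17596 CPM in Col D0. In RanG22V D0 against Col D0, 4 of 5 were lower (12.1% of all genes were called lower), and fewer without replicate 2 of Col D0 or either library of RanG22V D0. Between RanG22V D3 and RanT27N D3, 3 were lower (6.92% of all genes were called lower), and fewer without either RanG22V D3 library. RBCS1A, the small subunit of Rubisco, had 78.3 to 209.9 CPM in RanG22V D0 and 3975 to 3996 CPM in Col D0 (log2 fold change -4.79 ± 0.67, SE, adjusted p = 0.00144, edgeR). All mesophyll markers had counts in every library, but they did not change as one. CA1 had 0.856 to 1.65 CPM in RanG22V D3 and 1.68 to 4.79 CPM in RanG22V D0, against 153.6 to 1053 CPM elsewhere. LHCB1.3 had 2756 to 3718 CPM in RanG22V D3, 140.6 to 434.3 CPM in RanG22V D0 and 687.1 to 11932 CPM in Col D0. LHCB2.1 had 908.1 to 1331 CPM in RanG22V D3 and 79 to 151.7 CPM in RanG22V D0. Its libraries lay far apart in RanT27N D3 (26 to 1094 CPM), RanT27N D0 (13.3 to 1166 CPM) and Col D0 (10.7 to 739.3 CPM). The 6 guard cell markers summed to 85.3 to 92.9 CPM in RanG22V D3, 85.2 to 86.1 CPM in RanT27N D3, 71.8 to 79.4 CPM in RanG22V D0, 90 to 104.8 CPM in RanT27N D0 and 107.5 to 119.4 CPM in Col D0. Their sum was lowest in RanG22V D0, where 1 of 6 was lower than in Col D0 (12.1% of all genes). That call was lost without either Col D0 library or replicate 1 of RanG22V D0. The part of guard cell markers in the STP1 result was not tested.

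The 4 epidermis markers summed to 36.8 to 53.9 CPM in RanG22V D0 and 118.7 to 192.3 CPM in Col D0. All 3 tested were lower (12.1% of all genes were called lower), and fewer without replicate 2 of RanG22V D0. Of 5 xylem and bundle sheath markers, 1 was lower in RanG22V D0 than in Col D0, where 12.1% of all genes were called lower. That 1 call is too few to set against this share. The marker was XCP2, a protease of xylem vessels, with 0.0957 to 0.593 CPM against 8.78 to 9.23 CPM. The 7 root, seed and flower markers summed to 6.91 to 21.8 CPM over all 10 libraries, and 0 of the 2 tested were called in any comparison.

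**Figure D4:**
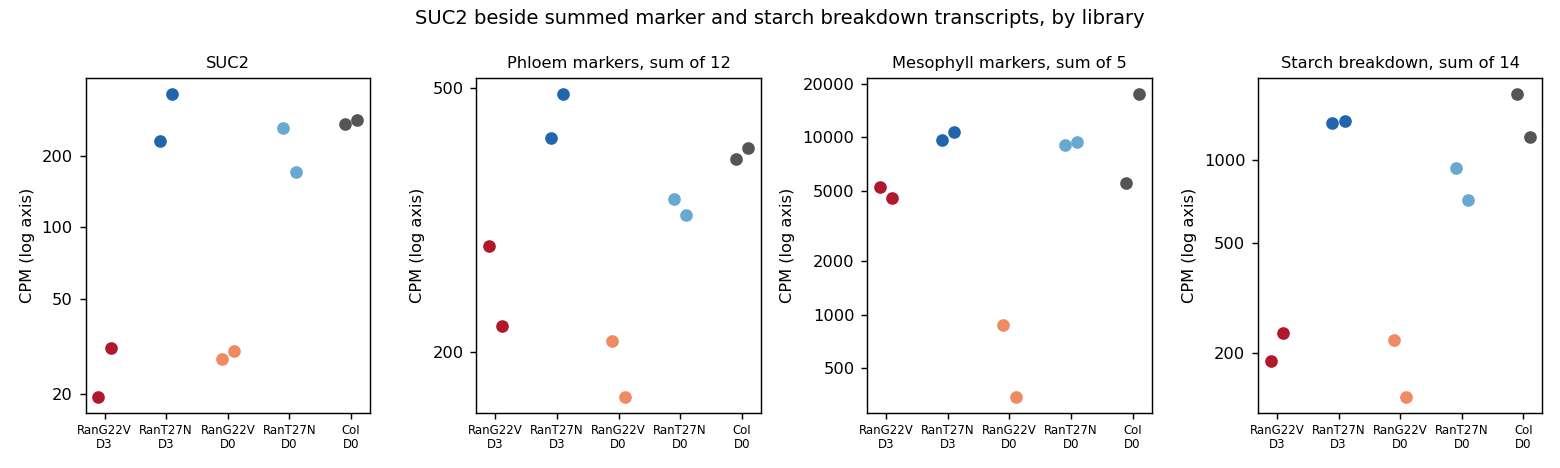
SUC2 and the summed levels of 12 phloem markers, 5 mesophyll markers and 14 genes of starch breakdown in each library (points), as CPM on log axes, by labelled group. The 4 libraries labelled RanG22V have the lowest SUC2, phloem and starch breakdown values, and the mesophyll sum is lowest in RanG22V D0, at 343.5 to 883.4 CPM. The order of the phloem sums rests on the marker PP2-A1.

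Pairs of the 6 transporters were compared by their levels across the 10 libraries. On log2(CPM + 2), Pearson's r was 0.83 between SUC2 and SWEET12, 0.85 between SWEET11 and SWEET12, 0.77 between SUC2 and STP4, and 0.79 between STP1 and STP13. STP4 had r = 0.56 with SWEET12 and 0.28 with SWEET11. SUC2 and STP1 had r = -0.60, STP13 and SWEET12 had r = -0.07, and STP13 and STP4 had r = 0.07. These values describe 10 libraries that form 5 pairs and share depth and group differences, so they carry no test.

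Among 9910 genes with a mean of at least 10 CPM, those most like SUC2 over the 10 libraries were HCF173 (r = 0.988) and RL4 (r = 0.987). For SWEET11 they were CYL1 (r = 0.946) and AT5G66650 (r = 0.916), and for SWEET12 AT1G14160 (r = 0.963) and PnsL2 (r = 0.962). AT1G14160 and PnsL2 overlap by 262 bases on opposite strands and are not independent. STP1 was most like AT3G51440 (r = 0.989) and AT1G13520 (r = 0.986), STP4 most like AT5G62610 (r = 0.952) and CRK4 (r = 0.920), and STP13 most like AT5G66810 (r = 0.968) and AT5G42250 (r = 0.939). With a pseudocount of 0.5 CPM neither gene remained among the closest pair for SWEET12, and 1 of the 2 remained for STP1 and for STP13.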

How the data were processed

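The authors deposited whole-number read counts per gene, 1 file per library, from QuantSeq libraries per the labels' protocols. Bowtie2, edgeR and the TAIR10 genome are named in the submitters' processing notes; the sources used here give neither versions, nor the counting program, nor how it treated strand. Rows were paired with loci through the RefSeq gene table of TAIR10.1 (32576 of 33028 rows, 98.6%; 429 rows share a name). No coordinates or sequences are given, as that build is not the one named. Groups and replicate numbers follow the sample titles.

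Tests on the counts used edgeR 4.0.16 (R 4.3.3): filterByExpr with a minimum count of 10 (21475 genes), TMM scaling, 1 fit of 5 group means over 10 libraries (biological coefficient of variation 45%), the quasi-likelihood test and Benjamini-Hochberg adjustment over all genes tested, with a call at an adjusted p below 0.05. SE is the size of the log2 fold change over the square root of F. CPM use TMM-scaled library sizes. Counts of 293 to 6518 for SUC2 carry a counting error of 5.84% to 1.24%; reads have no molecular identifiers, so such errors and the 3-count floor cover counting error only. The fit was tested on simulated counts with a smaller spread than these data, so that test does not show how it performs here.

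The members and lists were chosen with earlier results of these data known. Besides the members, the text names Ran genes and called list genes (at most 3 per list and comparison). It also names the 2 genes most correlated with each member. AKT2, NAC086, LHCB1.3 and LHCB2.1 were named after their values were seen. Of 134 list genes, 128 were paired. Alternatives were DESeq2 1.42.0 and its size factors, no filter, a stricter filter, a replicate block, no ribosomal RNA rows, only the compared libraries, and each library left out.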

Additional observations from a re-analysis of the deposited data

Results flagged for a closer look

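ESL1, a monosaccharide facilitator of the vacuole, was the 1 gene among the transporters and named list genes for which the effect of labelled darkness differed between the labelled lines by a test of the difference itself (log2 interaction -5.79 ± 0.79, SE, adjusted p = 0.0262, edgeR quasi-likelihood test). It had 9.24 to 12.8 CPM in RanG22V D3, 26.9 to 73.5 CPM in RanT27N D3, 179.3 to 317.9 CPM in RanG22V D0 and 13.5 to 27.3 CPM in RanT27N D0. RanG22V D3 against RanG22V D0 gave -4.49 ± 0.60 (adjusted p = 0.00699), and RanT27N D3 against RanT27N D0 gave 1.3 ± 0.53 (adjusted p = 0.491). The interaction was lost in 6 of 17 alternatives, all of them a library left out: either library of RanT27N D0 (adjusted p = 0.07 and 0.0651) or of RanG22V D3 (0.143 and 0.15), replicate 1 of RanG22V D0 (0.0868) or replicate 2 of RanT27N D3 (0.0616). By the headers the same value is the darkness effect in the RanT27N line less that in the RanG22V line.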

How the results depend on the processing

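The SUC2 calls and the call of STP1 in RanG22V D0 against Col D0 kept direction and threshold in all 17 alternatives. The count of members called in RanG22V D3 against RanG22V D0 was 1, and it was 3 by DESeq2, 2 with no filter, 2 with the replicate block, 3 with only the compared libraries and 0 to 2 with a library left out. DESeq2 called 1 member where edgeR called 0 in RanT27N D3 against RanT27N D0, RanT27N D0 against Col D0 and the interaction. With a library left out, the count was 1 to 2 in RanG22V D3 against RanT27N D3, 1 to 3 in RanG22V D0 against RanT27N D0 and 1 to 3 in RanG22V D3 against Col D0. Over all genes, calls ranged over the alternatives from 27 to 3607 (846 in the fit reported) for RanG22V D3 against RanG22V D0, 0 to 563 (74) for RanT27N D3 against RanT27N D0, 486 to 4146 (2324) for RanG22V D3 against RanT27N D3, 1641 to 5420 (3782) for RanG22V D0 against RanT27N D0, 2384 to 6519 (4980) for RanG22V D0 against Col D0, 0 to 402 (53) for RanT27N D0 against Col D0, 549 to 4279 (2404) for RanG22V D3 against Col D0, 0 to 48 (0) for RanT27N D3 against Col D0 and 1 to 719 (45) for the interaction. Uncalled log2 fold changes that changed sign with a library left out were, from lowest to highest, -0.59 to 0.09 for SUC2 and -0.95 to 0.05 for STP4 in RanG22V D3 against RanG22V D0, -1.91 to 0.35 for STP13 in RanT27N D3 against RanT27N D0, -1.31 to 0.69 for STP13 in RanG22V D3 against RanT27N D3, -0.07 to 0.33 for SWEET11 in RanG22V D0 against RanT27N D0 and -0.24 to 1.27 for STP13 in RanT27N D0 against Col D0. In RanT27N D3 against Col D0 they were -0.23 to 0.38 for SUC2, -0.50 to 0.02 for SWEET11, -0.77 to 0.21 for STP4 and -1.21 to 0.79 for STP13, the last being -0.05 with the replicate block. The count file headers carry a set number equal to the replicate number, but no source says what a set shares. Of 10 pairs of groups, 5 had correlated deviations of 0.1 or less (-0.013 to 0.481 over all pairs). The highest were 0.481 (RanT27N D3 with Col D0), 0.288 (RanT27N D3 with RanT27N D0) and 0.182 (RanT27N D0 with Col D0). By the headers these groups are all day-0 leaves. The main fit did not take the numbers to pair the libraries, and what a set shares was not tested. The block changed the call of no member other than STP13, with adjusted p = 0.016 in RanG22V D0 against Col D0 and 0.0276 in RanG22V D3 against RanG22V D0 (edgeR). Of 103 calls of list genes that the naming rule covers, 42 were kept in all alternatives and 61 were lost when some library was left out. The cause of these changes was not tested. With a library left out its pair has 1 library, assumed to vary like the other groups.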
